A study of Danio rerio with 43 samples.

Results

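Primitive blood and globin transcripts were followed in whole zebrafish embryos with and without a functional rif1 gene. The set holds 10 genes chosen by symbol: gata1a, tal1, lmo2, alas2, slc4a1a, cahz, hbbe1.1, hbbe3, hbae1.1 and hbae3. Of these, 8 were found under their own symbol among the 31877 gene entries of the table. The symbols slc4a1a and hbbe1.1 were not paired with an entry, so the 2 entries that share the symbol SLC4A1 and the 7 that share HBE1 are given by identifier and their identity is uncertain.

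The study compared wild-type embryos of the Tab5 strain with embryos of the same strain homozygous for the rif1 allele omf201, a gene whose product controls the timing of DNA replication. Pools of whole embryos were taken at the 1-cell stage (0 to 0.5 hours after fertilisation, hpf), at 256-cell (2 to 2.5 hpf), at dome (4 to 4.5 hpf), at shield (6 hpf), at bud (10 hpf) and at 24 hpf. There were 22 wild-type and 21 mutant libraries, 3 or 4 per stage and genotype, and the genotype of the parents is not in the labels. The labels give numbered replicates but do not say that these came from separate clutches, so p-values measure the spread between these libraries, which may in part be technical.

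In the zebrafish embryo the first blood cells arise from lateral plate mesoderm, gather in the midline as the intermediate cell mass and enter the circulation about a day after fertilisation. The transcription factors tal1 and lmo2 act first, in mesoderm that gives rise to blood and vessels, and gata1a then commits cells to the red cell fate. Committed cells switch on heme synthesis, whose first enzyme in red cells is alas2, the anion exchanger slc4a1a of the red cell membrane, the carbonic anhydrase cahz and the embryonic globins. Embryonic hemoglobin joins alpha-like chains, encoded by the hbae genes, with beta-like chains, encoded by the hbbe genes.

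Each library is a count of 3′ end reads per gene, and totals ran from 5211421 to 14143931 counts with a median of 7606729. Levels below are CPM, counts scaled to the library total, and a group in which all libraries held no count can still hold up to 0.0665 to 0.167 CPM, the limit that 3 counts over the group's total set. At the 1-cell stage wild-type libraries already held rif1 itself at 94.2 ± 18.1 CPM (SD, n = 4), and mutant libraries at 5.35 ± 0.629 CPM (n = 3). At 24 hpf rif1 was at 66.2 ± 5.07 CPM in wild type (n = 4) and at 7.92 ± 1.94 CPM in mutants (n = 4). In whole-embryo pools, fewer cells of a type and less RNA per cell cannot be told apart. No member lies on the chromosome of rif1 in RefSeq's GRCz12tu assembly.

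In wild type 7 of the 8 matched genes had their highest mean level at 24 hpf, and cahz had it at bud. All 8 were called between bud and 24 hpf, 7 upward and cahz downward, where 60% of all genes tested were called, 34.4% upward and 25.7% downward. Only cahz, hbae1.1 and hbae3 had enough counts at bud to be tested between genotypes there. The other 5, and those SLC4A1 and HBE1 entries that were too low at bud, passed the filter on low counts through their 24 hpf libraries, so their direction was fixed by it and their levels are a description. The choice of scaling moved the median of all genes in this comparison from 0.13 log2 units to -0.08 with library totals alone, far less than the changes of the members.

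The early transcription factors had few reads before 24 hpf. gata1a, the zinc finger factor of the red cell fate, had 0, 3, 0 and 0 counts in the 4 wild-type bud libraries and 107, 57, 65 and 88 counts at 24 hpf. It became 80.2-fold higher, by counts pooled over the libraries of a group and divided by their pooled totals as for all folds between these stages, with an exact counting interval of 27.2 to 391 that covers counting error only. tal1, a basic helix-loop-helix factor without which zebrafish make no blood, was without a count in wild-type bud libraries and had 84, 46, 97 and 132 counts at 24 hpf. It was at least 90.9-fold higher at the later stage, and lmo2, the adaptor that links tal1 with GATA factors, at least 54.7-fold, each against the floor of 3 counts over the bud group. lmo2 also had scattered counts at earlier stages, up to 10 in a wild-type dome library and up to 16 in a mutant one.

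alas2 was the one member of the heme pathway in the set and showed a trace at bud. Its wild-type bud libraries held 9, 12, 1 and 1 counts, and its 24 hpf libraries held 146, 121, 146 and 129. The pooled counts gave a level 17.9-fold higher at 24 hpf. The SLC4A1 entry ENSDARG00000012881, which may be slc4a1a, went from 0.617 ± 0.664 CPM at bud to 72.8 ± 7.15 CPM at 24 hpf (n = 4 each). The other SLC4A1 entry, ENSDARG00000024560, went from 0.505 ± 0.402 to 4.16 ± 1.81 CPM (n = 4 each). Both had few counts at bud, so these levels are a description.

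The globins reached the highest 3′ read levels of the set. In wild type hbbe3, a beta-like embryonic globin, went from 1.87 ± 2.15 CPM at bud to 1687 ± 187 CPM at 24 hpf (n = 4 each), 917-fold by pooled counts. hbae1.1, an alpha-like globin, went from 7.50 ± 2.82 to 1367 ± 199 CPM, 185-fold by pooled counts (edgeR quasi-likelihood test, adjusted p 7.57e-12). hbae3, also alpha-like, went from 9.19 ± 1.56 to 2423 ± 273 CPM, 265-fold (edgeR adjusted p 7.27e-19). No bud library overlapped any 24 hpf library for these genes, though for hbbe3 the direction was fixed by the filter. The share of all genes with ranges apart at this step was not counted. Of the 7 HBE1 entries, which are beta-like globins and may include hbbe1.1, ENSDARG00000087390 rose by 7.38 log2 units (SE 0.24, edgeR adjusted p 1.08e-09). The changes of ENSDARG00000113599 and ENSDARG00000115405 were 9.47 (SE 0.23) and 8.26 (SE 0.32). These entries had as few as 6 and 7 counts in a wild-type bud library and passed the filter through 24 hpf alone. Their direction was thus fixed by the filter, and their changes are a description.

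cahz kept another timetable. This carbonic anhydrase, listed with the red cell genes, had at most 7 counts in a wild-type library up to dome. It then had 51.7, 47.6 and 30.8 CPM in the 3 shield libraries and 200.4, 91.7, 144 and 183 CPM at bud. At 24 hpf it had 49.7, 42.8, 32.5 and 47.3 CPM. It thus appeared before gata1a had a count in any wild-type library, was highest at bud and fell afterwards. Which cells of the embryo held cahz was not tested, so its level cannot be read as that of red cells. Between dome and shield the wild-type level rose by 6.66 log2 units (SE 0.40, edgeR adjusted p 4.16e-10). The next step, to bud, added 1.94 (SE 0.24, adjusted p 7.07e-06), and the last was -1.63 (SE 0.20, adjusted p 6.19e-06). It was the sole member called in either of the earlier steps, where 52.9% and 50.5% of all genes tested were called. Between 1-cell and 256-cell no member had enough counts to be tested, where 49.2% of all genes were called. Between 256-cell and dome 3 members were tested and none was called, where 43.3% of all genes were. With library totals alone the median of all genes moved by -0.47 log2 units from dome to shield, so the size of that rise, not its direction, depends on the scaling.

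**Figure D1:**
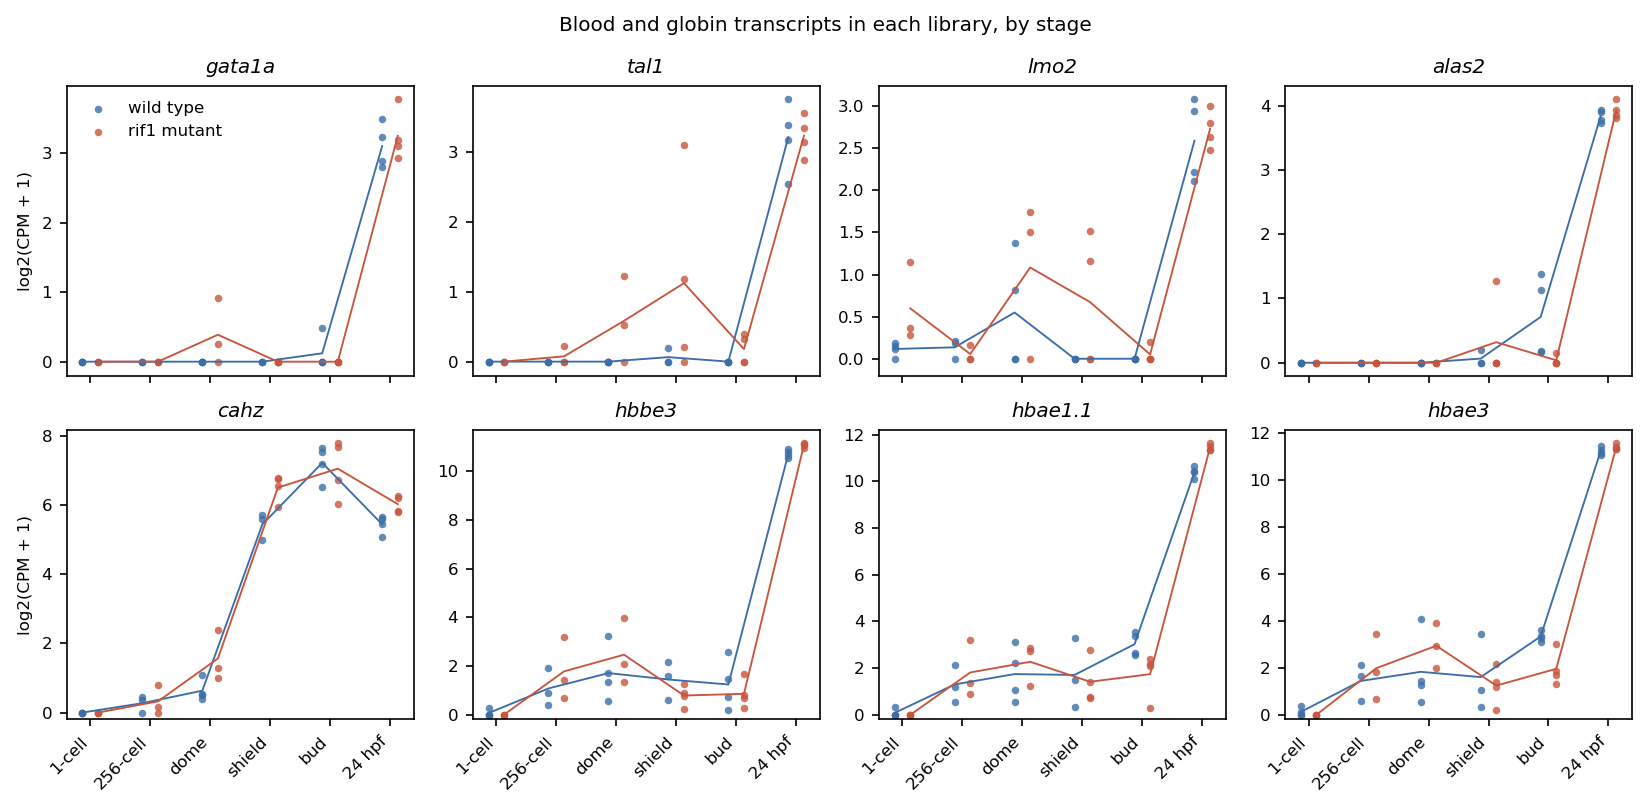
Level of the 8 matched genes in each of the 43 libraries, as log2(CPM + 1) on the vertical axis against stage on the horizontal axis. Points are libraries, lines join group means of the plotted values, blue is wild type and red is rif1 mutant. 7 genes have their highest group means at 24 hpf, with low globin values in most libraries from 256-cell on, whereas cahz rises at shield, peaks at bud and is lower at 24 hpf.

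Further genes of the red cell programme were read from lists of known genes. As with the members, genes with few or no counts at bud passed the filter through 24 hpf alone, so their direction was fixed by it. The counts that follow are a description beside the 34.4% of all genes that rose and the 25.7% that fell. Of 11 tested genes of heme synthesis and iron uptake, 6 rose and none fell between wild-type bud and 24 hpf, with a median of 1.28 log2 units against 0.13 for all genes. They were led by ppox, a late enzyme of heme synthesis (0.855 to 9.42 CPM), and the transferrin receptor tfr1a (0.177 to 1.77 CPM). Of 8 tested genes of the red cell membrane and skeleton, 7 rose and none fell, with a median of 5.30. epb41b, a protein 4.1 of the membrane skeleton, had no count in any wild-type bud library and 16.95 CPM at 24 hpf, and add2, an adducin, went from 0.0342 to 12.4 CPM. This list includes tmod4, a tropomodulin that skeletal muscle also uses.

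Among 10 tested erythroid regulators 2 rose and 6 fell, beside 34.4% and 25.7% of all genes, with a median of -0.98 log2 units. hemgn, a nuclear protein of red cell precursors in mammals, went from 0.182 to 18.2 CPM, and klf1 went from 0.535 to 4.17 CPM. blf, a zinc finger gene of the early embryo, fell from 52.5 to 9.28 CPM (-2.29 log2 units, SE 0.17, edgeR adjusted p 1.63e-09). The remaining globins matched by symbol gave 4 rises and 1 fall among 5 tested. hbae4 had no count at wild-type bud and 14.4 CPM at 24 hpf, hbae1.3 went from 0.577 to 455 CPM, and hbaa2 fell from 3.32 to 0.491 CPM (-2.52, SE 0.89, edgeR adjusted p 0.0212). hbaa2 was too low at 24 hpf to pass the filter through those libraries. Its direction was thus fixed by the filter through bud, and its fall is a description. The fall of hbaa2 was not called without wild-type bud replicate 4 (-1.88, adjusted p 0.128), nor without 24 hpf replicate 1 or 2.

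Markers of neighbouring lineages are described at the same step, beside the 34.4% of all genes that rose and the 25.7% that fell. Those with few or no counts at bud passed the filter through 24 hpf alone, so their direction was fixed by it. All 5 tested endothelial genes rose, led by the junction protein cdh5, which went from 0.0296 to 32.8 CPM. Of the blood and vessel progenitor list, egfl7 and myb rose and gata2a fell from 64.8 to 6.07 CPM (-3.21 log2 units, SE 0.28, edgeR adjusted p 2.88e-08). In the myeloid list coro1a, lyz and spi1b rose, while lcp1, an actin bundling protein, fell from 570.1 to 30.6 CPM (-4.01, SE 0.11, adjusted p 1.79e-15). The 3 skeletal muscle and 3 heart genes tested all rose as well. ckma, a muscle creatine kinase, went from 2.34 to 2096 CPM and cmlc1, a heart myosin light chain, from 0.0626 to 61.2 CPM.

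The genes whose pattern lay closest to gata1a across the 43 libraries, by Pearson's r of log2 CPM among 17727 genes, were chrne (r = 0.987), si:ch211-145b13.6 (0.986), fxyd12 (0.985) and the entries ENSDARG00000039949 (0.983) and ENSDARG00000069775 (0.982). For alas2 they included si:dkey-102c8.3 (0.965), clec14a (0.965), fxyd12 (0.962) and ENSDARG00000001937 (0.962). Among the members themselves, r with gata1a was 0.952 for alas2, 0.944 for hbbe3, 0.933 for hbae1.1, 0.930 for hbae3, 0.893 for tal1, 0.874 for lmo2 and 0.392 for cahz. These values describe a shared step, since the libraries fall into those of 24 hpf, where these genes are present, and all others.

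The genotypes differed in the set at 24 hpf, where 4 of the 8 genes were higher in mutants and none was lower, against 4.35% of all genes tested called higher and 8.63% called in either direction. The genes called were the globins hbae1.1, hbbe3 and hbae3 and the carbonic anhydrase cahz, whose course over the stages was unlike that of the other members. The transcription factors and alas2 were not called. The median log2 fold change of the 8 genes was 0.23, beside -0.01 for all genes.

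hbae1.1 differed most. Its wild-type libraries held 1600.1, 1116, 1356 and 1395 CPM and its mutant libraries 2601, 2621, 2947 and 3164 CPM. Every mutant library lay above every wild-type library. The log2 fold change was 1.11 (SE 0.08, edgeR adjusted p 3e-10), a 2.16-fold difference. hbbe3 held 1904, 1476, 1604 and 1766 CPM in wild type and 1999.8, 2190.1, 2257 and 2206 CPM in mutants, again without overlap. Its log2 fold change was 0.42 (SE 0.07, edgeR adjusted p 4.02e-05).

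hbae3 held 2787, 2156, 2289 and 2461 CPM in wild type and 2566, 2576, 2715 and 3017 CPM in mutants. Here the groups overlapped, because wild-type replicate 1 was above 3 of the mutant libraries. The difference was small, with a log2 fold change of 0.23 (SE 0.07, edgeR adjusted p 0.0327), and this call was lost under 9 of 15 alternatives. cahz held 49.7, 42.8, 32.5 and 47.3 CPM in wild type and 76.4, 72.8, 54.9 and 55.8 CPM in mutants. No mutant library was as low as any wild-type library, and the log2 fold change was 0.66 (SE 0.14, edgeR adjusted p 0.00162).

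The regulators and alas2 overlapped between genotypes. gata1a held 10.3, 5.97, 6.37 and 8.38 CPM in wild type and 8.10, 12.7, 6.62 and 7.56 CPM in mutants (log2 fold change 0.23, SE 0.30, edgeR adjusted p 0.740). tal1 averaged 8.74 ± 3.22 CPM in wild type and 8.57 ± 1.87 CPM in mutants (0.03, SE 0.30, adjusted p 0.976; n = 4 each), and lmo2 averaged 5.29 ± 2.10 and 5.69 ± 1.06 CPM (0.17, SE 0.36, adjusted p 0.867; n = 4 each). With 35 to 132 counts per library these 3 genes were measured with wider errors than the globins, with SEs of 0.30 to 0.36 on the log2 scale against 0.07 for hbbe3. A difference of the size seen for hbbe3, 0.42, was close to such an error. alas2 held 14.0, 12.7, 14.3 and 12.3 CPM in wild type and 14.3, 16.1, 13.4 and 13.1 CPM in mutants, with overlapping ranges (0.16, SE 0.22, adjusted p 0.768). The SLC4A1 entry ENSDARG00000012881 held 72.8 ± 7.15 and 84.1 ± 12.3 CPM (0.27, SE 0.12, adjusted p 0.184; n = 4 each).

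These 24 hpf calls depended on which libraries were fitted together. That choice sets the spread, the scaling, the filter and the genes over which p-values were adjusted, and their parts were not tested. When one edgeR fit took the spread from all 12 groups, none of the 4 genes was called (adjusted p 0.348 for hbae1.1, 0.434 for cahz, 0.935 for hbbe3 and 1 for hbae3) and the genes called in all fell from 1082 to 261, while the log2 fold changes hardly moved. With library totals alone the split of all calls went from 545 higher and 537 lower to 409 and 700.

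The alpha-like globin copies did not move together. In RefSeq's GRCz12tu assembly hbae1.1, hbae1.2 and hbae1.3 alternate with hbbe1.1, hbbe1.2 and hbbe1.3 in one run of neighbouring genes that ends with hbae3, while hbae4, hbbe3, hbbe2 and hbae5 form a second run on another chromosome. hbae1.2 held 860, 896, 851 and 783 CPM in wild type and 454, 429, 483 and 581 CPM in mutants, lower without overlap (log2 fold change -0.74, SE 0.08, edgeR adjusted p 2.68e-08). hbae1.3 averaged 455 ± 52.7 CPM in wild type and 274 ± 36.5 CPM in mutants, also without overlap (-0.67, SE 0.09, adjusted p 1.45e-06; n = 4 each). hbae1.1 took 51.0 ± 4.09% of the reads of the 3 copies in wild type and 78.8 ± 0.371% in mutants (SD, n = 4 each). The sum of the 3 copies was 2669 ± 213 CPM in wild type and 3594 ± 353 CPM in mutants, with no overlap. The copies are near-identical, so the counting could have divided their reads, and each single value is uncertain.

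The HBE1 entries carry the same uncertainty. Of the 5 tested, 3 were called higher in mutants and none lower, where 4.35% of all genes tested were called higher. ENSDARG00000087390 held 2726, 1830.4, 1982 and 2051 CPM in wild type and 4359, 4875, 4871 and 4835 CPM in mutants, higher in every mutant library (log2 fold change 1.201, SE 0.08, edgeR adjusted p 3.32e-10). ENSDARG00000115405 averaged 642 ± 55.0 and 793 ± 109 CPM (0.36, SE 0.08, adjusted p 0.0028; n = 4 each) without overlap, and ENSDARG00000045143 averaged 26.4 ± 6.84 and 39.2 ± 9.03 CPM (0.63, SE 0.18, adjusted p 0.0197; n = 4 each) with overlap. ENSDARG00000113599 averaged 923 ± 167 and 962 ± 107 CPM and was not called (0.12, SE 0.09, adjusted p 0.534; n = 4 each). ENSDARG00000097238 averaged 1.92 ± 1.41 and 2.04 ± 0.964 CPM (n = 4 each) and was not called. ENSDARG00000069734, which was too low to be tested, had 45 counts over the 4 wild-type libraries and none in the mutants, whose group total allows up to 0.0782 CPM. Of the other globins, hbae4 averaged 14.4 ± 3.21 and 22.2 ± 3.39 CPM and was higher (0.68, SE 0.21, adjusted p 0.0304; n = 4 each), a call lost under 6 of 15 alternatives.

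All 16 globin entries together took 1.23%, 0.943%, 1.01% and 1.04% of the wild-type libraries at 24 hpf and 1.38%, 1.48%, 1.56% and 1.60% of the mutant libraries. The mutant share was above the wild-type share in every library, with means of 1.504% and 1.05%.

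**Figure D2:**
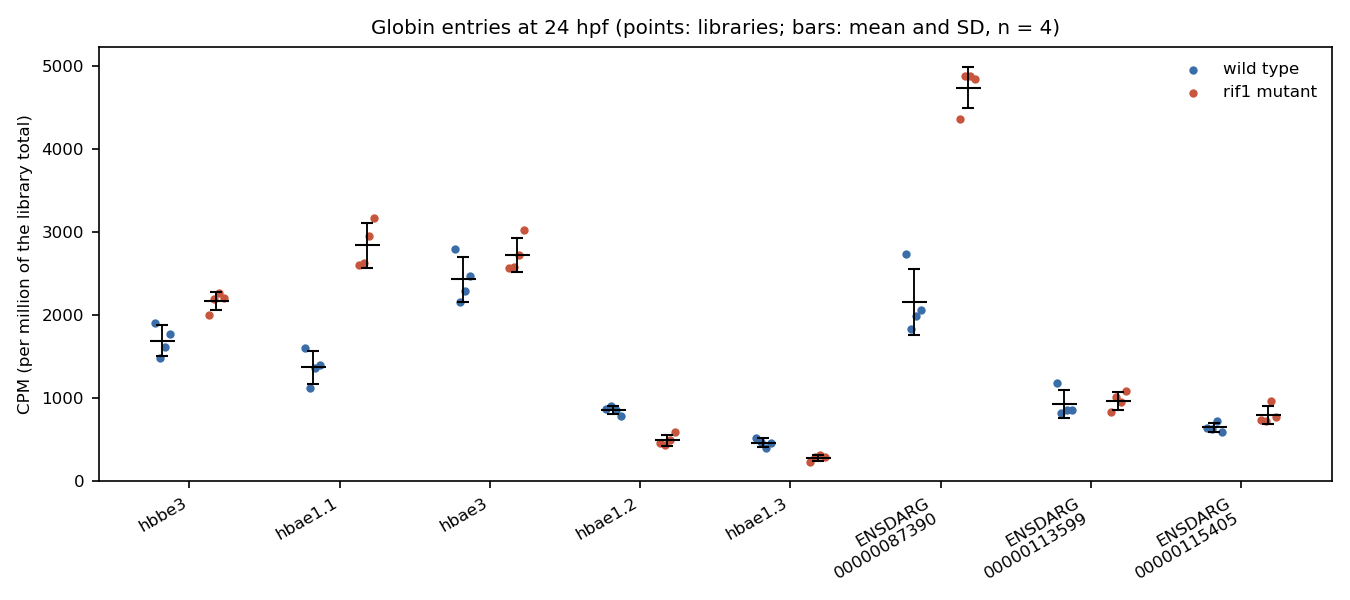
Globin entries at 24 hpf, in CPM on a linear vertical axis, with 1 point per library and bars for the mean and SD of the 4 libraries of each genotype. hbae1.1 and the HBE1 entry ENSDARG00000087390 are higher in all mutant libraries, hbae1.2 and hbae1.3 are lower in all of them, and hbae3 and ENSDARG00000113599 overlap.

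The other genes of red cells were mostly not called between genotypes at 24 hpf, where 8.63% of all genes tested were called in either direction. None of 12 tested genes of heme synthesis and iron passed the threshold, with a median log2 fold change of 0.21. The genes of highest level there were the iron transporter slc11a2 (86.3 and 102 CPM, 0.30, SE 0.11, edgeR adjusted p 0.0852) and tmem14ca (60.5 and 71.1 CPM, 0.30, SE 0.12, adjusted p 0.145). None of 8 membrane genes passed either, with a median of 0.05. Of 11 erythroid regulators 1 was higher: hemgn averaged 18.2 ± 5.94 CPM in wild type and 32.2 ± 6.22 CPM in mutants (0.88, SE 0.20, adjusted p 0.00262; n = 4 each), with ranges that overlapped.

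Markers of other cell types moved in both directions in the same libraries. Of the myeloid list 3 of 4 tested genes were called higher in mutants, where 4.35% of all genes were called higher: coro1a, an actin regulator of leukocytes (11.6 and 23.8 CPM, 1.097, SE 0.21, edgeR adjusted p 0.000356), lyz, the lysozyme of phagocytes (6.89 and 13.9 CPM, 1.07, SE 0.26, adjusted p 0.00495), and lcp1 (30.6 and 49.5 CPM, 0.75, SE 0.15, adjusted p 0.000584). Their libraries did not overlap between genotypes, and the share of all genes with ranges apart was not counted. The 6 matched myeloid markers summed to between 47.6 and 56.3 CPM in wild type and between 84.9 and 99.4 CPM in mutants. lcp1 made up most of both sums (means 52.3 and 91.5 CPM), so they lean on 1 gene. csf1ra went the other way, with counts in wild type and none in mutants. None of 6 endothelial genes and none of 3 progenitor genes was called. The sum of the 7 matched endothelial markers ran from 53.9 to 80.2 CPM in wild type and from 74.7 to 82.6 CPM in mutants. Of the thrombocyte markers mpl and itga2b were at 0 in both genotypes and gp1bb was not called (-0.49, SE 0.49, adjusted p 0.647).

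Of 3 tested skeletal muscle genes 2 were lower in mutants and of 3 tested heart genes 2 were higher, where 4.28% of all genes were called lower and 4.35% higher. acta1b, a skeletal muscle actin, averaged 77.8 ± 8.74 CPM in wild type and 41.4 ± 2.31 CPM in mutants (-0.85, SE 0.12, edgeR adjusted p 4.59e-06; n = 4 each). myhz1.1, a fast myosin, averaged 765 ± 67.3 and 558 ± 111 CPM (-0.39, SE 0.10, adjusted p 0.0138; n = 4 each), a call lost under 5 of 15 alternatives. ckma averaged 2096 and 1824 CPM and was not called (-0.14, SE 0.07, adjusted p 0.260). The 3 matched muscle markers summed to between 2782 and 3120.2 CPM in wild type and between 2032 and 2726 CPM in mutants. The heart genes myl7 (34.5 and 45.5 CPM, 0.46, adjusted p 0.0372) and nppa (26.2 and 36.9 CPM, 0.56, adjusted p 0.0490) were higher with overlapping libraries and lost their calls under 9 and 10 of 15 alternatives, and cmlc1 was not called (61.2 and 66.3 CPM, 0.18, SE 0.12, adjusted p 0.460). The part of these lists in the globin difference was not tested.

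**Figure D3:**
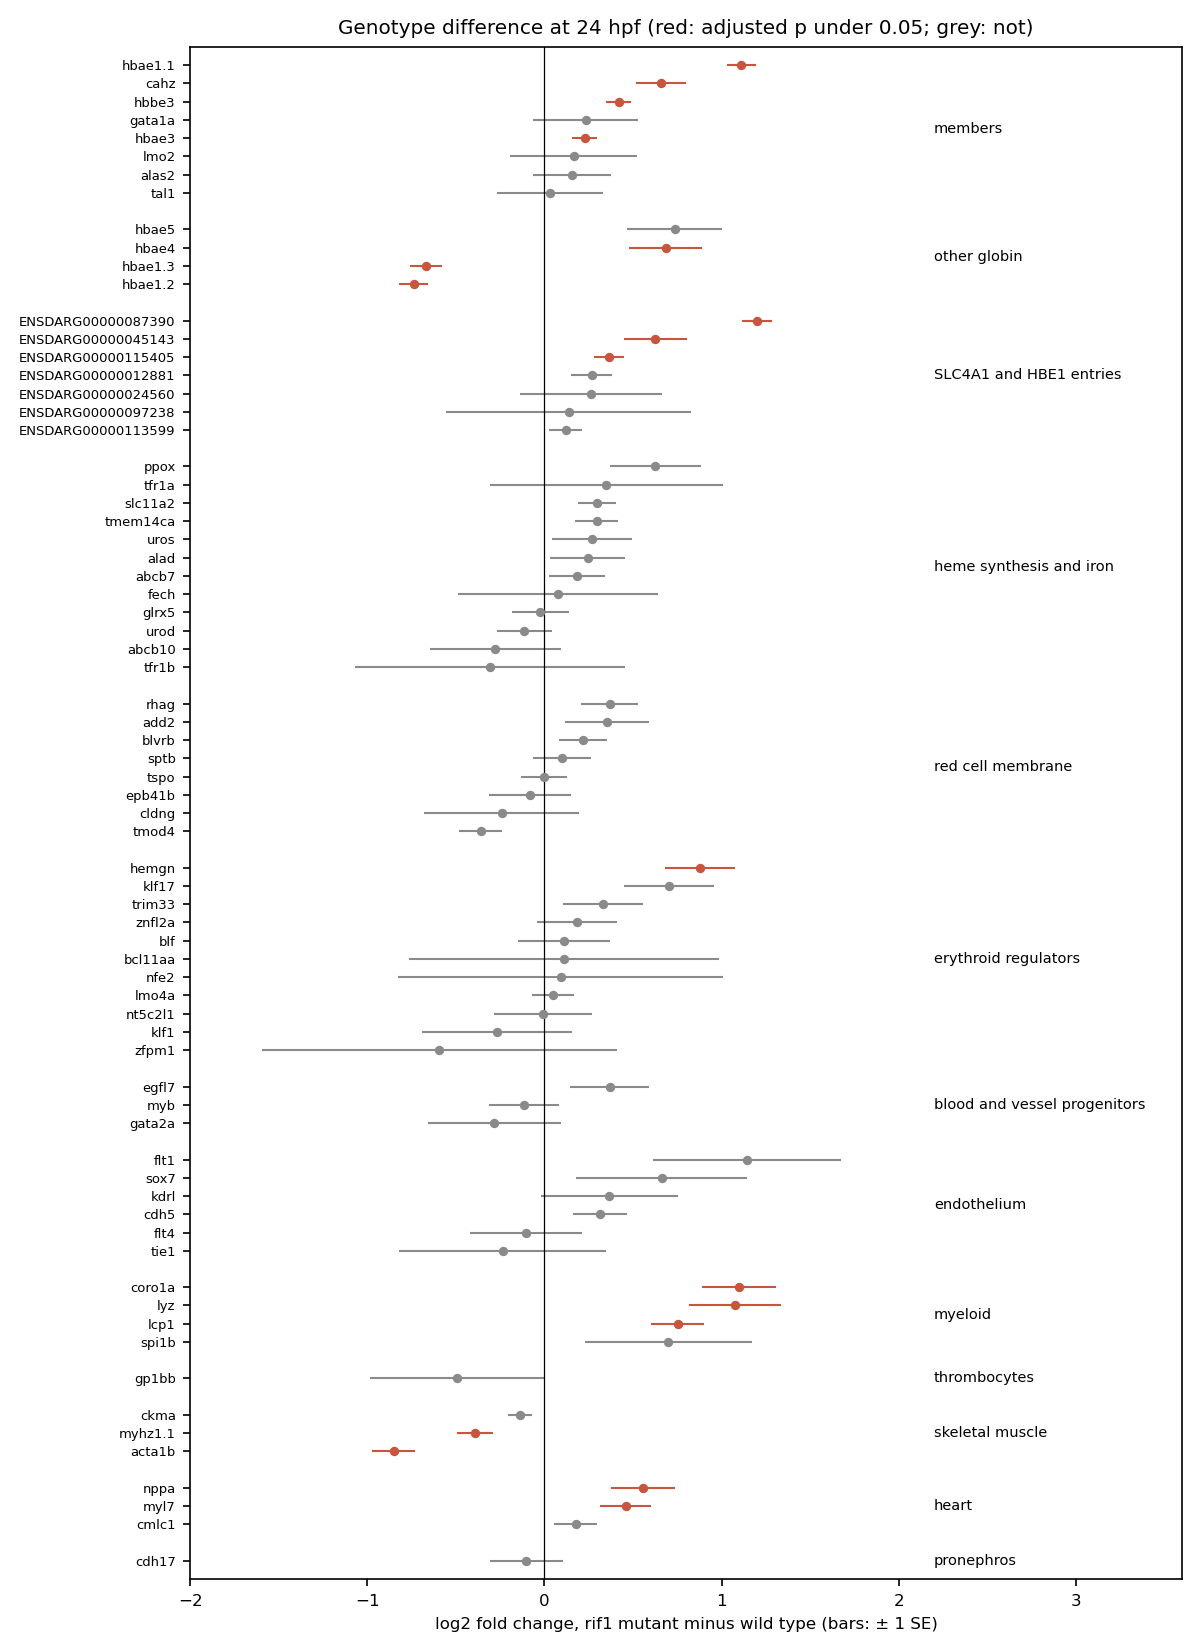
Mutant minus wild-type log2 level at 24 hpf on the horizontal axis, with bars of ± 1 SE, for every tested gene of the blood set and of the further lists, in red where the adjusted p was under 0.05. The 8 set members run from 0.03 to 1.11, while hbae1.2, hbae1.3, acta1b and myhz1.1 are on the negative side.

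Before 24 hpf a single genotype difference in the set passed the threshold. At shield cahz held 51.7, 47.6 and 30.8 CPM in wild type and 92.8, 60.3, 110.2 and 106 CPM in mutants, with every mutant library above the wild type. The share of all genes with ranges apart at shield was not counted. The log2 fold change was 1.14 (SE 0.21, edgeR adjusted p 0.000718), 1 of 3 members tested where 9.76% of all genes were called. At bud cahz averaged 155 ± 48.2 and 148 ± 75.6 CPM (n = 4 each) and its libraries overlapped widely (-0.03, SE 0.43, adjusted p 0.984). The genotype difference at bud minus that at shield was -1.14 (SE 0.55, edgeR adjusted p 0.374), where 2.66% of all genes were called. At 24 hpf minus bud it was 0.68 (SE 0.46, adjusted p 0.545), so a difference between the stages was not shown.

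No member was called at bud among 3 tested, where 5.51% of all genes were. hbae1.1 and hbae3 had lower means in mutants but were not called. hbae3 held 58, 69, 83 and 73 counts in wild type and 12, 17, 20 and 66 in mutants, and hbae1.1 held 37, 70, 77 and 45 against 35, 23, 2 and 31. In CPM hbae3 ran from 7.65 to 11.3 in wild type and from 1.48 to 7.04 in mutants, and hbae1.1 from 4.88 to 10.5 and from 0.220 to 4.30. The share of all genes with ranges apart at bud was not counted. The log2 fold changes were -1.39 for hbae3 (SE 0.46, edgeR adjusted p 0.0863) and -1.37 for hbae1.1 (SE 0.57, adjusted p 0.195). Leaving out mutant replicate 4 brought hbae3 past the threshold (-2.10, edgeR adjusted p 0.00698). That library held the highest mutant hbae3 count, 66, so this value is a description. alas2 was too low to be tested at bud, with 9, 12, 1 and 1 counts in wild type and 0, 0, 1 and 0 in mutants.

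The further lists had no called gene at bud either. The adult-type alpha globin hbaa2 averaged 3.32 CPM in wild type and 0.629 CPM in mutants (-2.30, SE 0.91, edgeR adjusted p 0.167), and slc11a2 averaged 47.6 and 53.8 CPM (0.22, SE 0.19, adjusted p 0.606). The endothelial receptor flt4 averaged 4.03 and 1.13 CPM (-1.77, SE 0.72, adjusted p 0.181) and ckma 2.34 and 4.50 CPM (1.01, SE 0.64, adjusted p 0.443).

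The change of the genotype difference between bud and 24 hpf passed the threshold for hbae1.1 and hbae3, where 2.91% of all genes were called. Of 23 alternatives, 21 kept the call of hbae1.1 and only 6 that of hbae3. The change was 2.49 log2 units for hbae1.1 (SE 0.51, edgeR adjusted p 0.0173), from a difference of -1.37 that was not called at bud to 1.11 at 24 hpf, and 1.58 for hbae3 (SE 0.39, adjusted p 0.0420). Over the same interval the pooled counts gave a level of hbae1.1 that became 185-fold higher in wild type and 1027-fold higher in mutants, and one of hbae3 that became 265-fold and 781-fold higher. As 1 of 3 near-identical copies, hbae1.1 has an uncertain single value. The change was not called for hbae1.2 (0.47, SE 0.74, edgeR adjusted p 0.858) or hbae1.3 (0.68, SE 0.80, adjusted p 0.775). The sum of the 3 copies went from 10.7 to 2669 CPM in wild type and from 4.19 to 3594 CPM in mutants. alas2 also passed the threshold (4.20, SE 1.05, adjusted p 0.0241), but it passed the filter through 24 hpf alone and its value is given as a description. It rests on the 23 wild-type bud counts, 21 of them in replicates 1 and 2. Without wild-type bud replicate 1 it was 3.87 (adjusted p 0.0594) and without replicate 2 it was 3.52 (adjusted p 0.0715), and in either case hbae3 was not called. In one fit of all 12 groups none of these 3 genes was called, and without the filter on low counts 5 members were.

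From 256-cell to shield the globins had low and uneven counts. No member was called at dome, where 17% of all genes were, or at 256-cell, where 13.5% were. Among the wild-type dome libraries hbae3 had 9, 3, 99 and 12 counts, and among the mutant ones 18, 72 and 45. The sum of hbbe3, hbae1.1 and hbae3 ran from 8 to 78 counts in wild type and from 17 to 176 in mutants at 256-cell, and from 9 to 201 and 35 to 182 at dome. At the 1-cell stage this sum was between 0 and 4 counts in wild type and 0 in each mutant library, and no member had enough counts to be tested there, where 10.2% of all genes were called.

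The early globin counts were set beside those of ckma, a transcript of differentiated muscle. At the 1-cell stage ckma had 14 to 47 counts per library where the globins had 0 to 4. In each of the 8 groups from 256-cell to bud the library with the most counts of these 3 globins was also the one with the most counts of ckma. Wild-type dome replicate 3 had 201 globin and 85 ckma counts, where the other 3 wild-type libraries had 30, 9 and 49 globin and 10, 5 and 15 ckma counts. Mutant 256-cell replicate 3 had 176 and 58, where the others had 17 and 34 globin and 22 and 30 ckma counts. As a share of the 24 hpf mean of the same genotype, wild-type dome stood at 0.188% for hbbe3, 0.238% for hbae1.1, 0.200% for hbae3 and 0.215% for ckma.

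The shares were less alike at other stages. At wild-type shield they were 0.117% for hbbe3, 0.265% for hbae1.1, 0.154% for hbae3 and 0.140% for ckma. At mutant shield they were 0.0361%, 0.0777%, 0.0603% and 0.129% in the same order. The shares also stood apart at bud. In wild type they were 0.111% for hbbe3 and 0.111% for ckma, but 0.549% for hbae1.1 and 0.379% for hbae3. In mutants they were 0.0428%, 0.247%, 0.100% and 0.122% in the same order. The wild-type libraries with the fewest ckma counts at bud, 8 each, still held 100 and 140 globin counts. The mutant bud library with the fewest globin counts, 24, had 44 ckma counts, above those of replicates 1 and 2. The part that carry-over of reads from other libraries has in these counts was not tested, and it bears on the bud values of the genotype-by-stage results above.

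**Figure D4:**
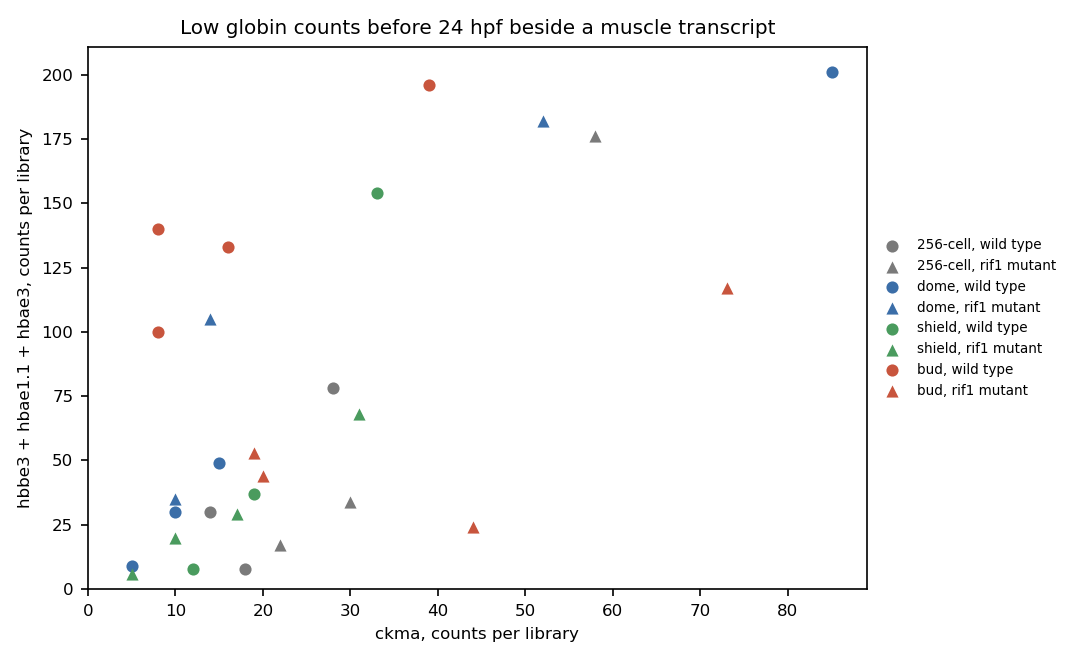
Summed counts of hbbe3, hbae1.1 and hbae3 on the vertical axis against counts of the muscle gene ckma on the horizontal axis, 1 point per library from 256-cell to bud, with colour for stage and circles for wild type and triangles for mutant. In each group the highest globin library is the highest ckma library, as with 201 and 85 counts at wild-type dome, and all wild-type bud libraries hold at least 100 globin counts.

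The early regulators had isolated counts before 24 hpf in both genotypes. tal1 had 53, 1, 0 and 8 counts in the mutant shield libraries against 0, 1 and 0 in wild type, and it had 8, 0 and 3 in mutant dome libraries against none in the wild-type ones. lmo2 had 13, 0, 9 and 0 counts in mutant shield libraries against none in wild type, and at dome 11, 0 and 16 in mutants against 0, 5, 10 and 0 in wild type. gata1a had 0, 1 and 6 counts at mutant dome, none at mutant shield and 3 in wild-type bud replicate 2. The library with 6, mutant dome replicate 3, also held 16 lmo2 and 3 tal1 counts, while replicate 1 held 11 lmo2 and 8 tal1 counts without gata1a. At these levels neither tal1 nor gata1a passed the filter on low counts at any stage before 24 hpf, and lmo2 passed it at dome alone (log2 fold change 1.298, SE 1.66, edgeR adjusted p 0.667).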

How the data were processed

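Polyadenylated RNA of pooled whole embryos was sequenced as single-end QuantSeq 3′ libraries, per the labels' protocols. The deposited table holds the authors' raw read counts per Ensembl gene in whole numbers for 43 libraries. STAR, HTSeq and the build GRCz11 are named in the submitters' processing notes. Their versions and settings, the use of strand and of molecular identifiers are not given in the sources used here, so intervals and floors cover counting error only, and overlapping genes or near-identical copies could share reads. The labels' genotype and stage give 12 groups. Totals ran from 5211421 to 14143931 counts. All 57 replicate pairs differed by more than sampling noise (chi-square per gene at least 7.60). A symbol was found for 28877 identifiers, of which 6086 share it with another entry and are named by identifier.

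Each comparison was fitted on its own libraries and on all genes with edgeR 4.0.16 (R 4.3.3; quasi-likelihood, robust, TMM scaling, filterByExpr) and adjusted by Benjamini-Hochberg over all genes tested. Genes were called at an adjusted p under 0.05. The standard error (SE) is the size of the log2 fold change over the square root of F. CPM values use library totals without scaling factors. Alternatives were RLE scaling, library totals alone, DESeq2 1.42.0 (Wald test), no filter, a minimum count of 30, a joint fit of the 12 groups, a replicate block, and leaving out single libraries.

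The members and lists were chosen with earlier results of these data known. Named are all members, rif1, and from each list at bud and 24 hpf up to 4 called genes of smallest adjusted p or, with none called, the 2 of highest CPM. Between wild-type bud and 24 hpf each list gives its 2 strongest rises and its strongest fall. For gata1a and alas2 the 5 genes of highest Pearson r (log2 CPM, prior count 2, mean of at least 1 CPM in a group) are named, apart from 1 that is not reported here. Other genes were chosen after their values were seen. Positions from RefSeq's GRCz12tu were used only for which genes neighbour each other. No sequence is shown.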

Additional observations from a re-analysis of the deposited data

Results flagged for a closer look

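The check covered 38 groups of 4 libraries in which a library held more than 3 counts of the member. In 3 of them 1 library stood far from the others by Dixon's criterion. Chance gives about 1 in 20 for normally spread values, a rate that does not hold where most libraries held 0 counts. tal1 was at 7.62 CPM in mutant shield replicate 1, with 0.157, 0 and 1.27 CPM in the others. alas2 was at 1.43 CPM in mutant shield replicate 4 and at 0 in the other 3 libraries. hbae3 was at 15.8 CPM in wild-type dome replicate 3, with 1.43, 0.461 and 1.68 CPM in the others, and ckma was also highest in that library. With all libraries hbae3 was not called at dome. Without this one, hbae3 was higher in dome mutants (log2 fold change 2.71, edgeR adjusted p 0.0474). The library was picked by its hbae3 value, so that p-value is a description and not a test.

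For hbae1.1 and hbae3 the difference between genotypes was called different at bud and at 24 hpf, by the edgeR interaction test. The change was 2.49 log2 units for hbae1.1 (adjusted p 0.0173) and 1.58 for hbae3 (adjusted p 0.0420). Over 23 alternatives hbae1.1 kept its call in 21 and hbae3 in 6. The single value of hbae1.1 is uncertain, since its near-identical copies could share reads. alas2 was also flagged, with a change of 4.20. Its bud counts were too few to be tested on their own and it passed the filter through 24 hpf alone, so its value is a description.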

How the results depend on the processing

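Of the 13 counts of called members, the wild-type change from bud to 24 hpf, the genotype effect at 1-cell and 256-cell, the wild-type change from 256-cell to dome and the interaction from shield to bud kept their counts within 1.5 times under every alternative run. In one fit of all 12 groups the count was 0 in place of 4 for the genotype effect at 24 hpf and 0 in place of 3 for the interaction from bud to 24 hpf, and 2 in place of 1 for the genotype effect at shield and for the wild-type changes from dome to shield and from shield to bud. Without a filter it was 2 in place of 0 from 1-cell to 256-cell, 2 in place of 1 from shield to bud, and 5 in place of 3 for the interaction. With each library left out in turn, the counts ran from 0 to 1 for the genotype effect at dome and at bud, from 0 to 2 from 1-cell to 256-cell, from 1 to 3 from shield to bud and from 1 to 3 for the interaction. The 3 calls from shield to bud came without wild-type shield replicate 3, which had the highest early globin count of its group (hbae3 3.86, edgeR adjusted p 0.000166; hbae1.1 2.90, adjusted p 0.00546). Leaving out the highest library raises the change, so these values are a description.

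With the replicate block the count was 2 in place of 1 from shield to bud and 1 in place of 3 for the interaction from bud to 24 hpf, and hbae3 at 24 hpf had an adjusted p of 0.0592. Deviations of same-numbered libraries correlated between -0.168 and 0.128. No reference from differently numbered libraries was computed, so whether the numbers pair the libraries was not tested. The cause of these shifts was not tested.

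Directions turned for differences close to 0. The cahz difference at bud ran from -0.27 to 0.22 over the libraries left out, that of tal1 at 24 hpf from -0.17 to 0.25 and was -0.0295 with library totals alone, that of lmo2 at 24 hpf from -0.00483 to 0.38, and the lmo2 interaction from -1.79 to 0.17. All genes called at 24 hpf numbered 261 in one fit of all groups in place of 1082, and at 256-cell 725 in place of 1499. DESeq2 called 1858 at 1-cell in place of 1232, 566 in place of 338 and 633 in place of 398 for the interactions. The bud count was 361 with the block in place of 584, and the last interaction 663 without a filter and 180 in one fit. With 1 library left out, the counts of all genes called fell as far as 466 at 1-cell, 606 at shield in place of 1049, and 360 at bud. They fell as far as 211 for the interaction from shield to bud and 265 for that from bud to 24 hpf. The shares of all genes called that are given above move with these counts. Counts were few for gata1a, tal1, lmo2 and alas2, and for every globin before 24 hpf, and the part of depth in their spread was not tested.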

Other observations

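At dome, where no member was called, some genes of the wider lists were called between genotypes. These genes were picked after their values were seen. Differences ran in both directions, beside 8.42% of all genes tested called higher in mutants and 8.59% called lower, 17% in either direction. Of 12 heme and iron genes tested 1 was higher and 1 lower, and of 3 membrane genes 1 was lower. Of 10 erythroid regulators 3 were higher, and of 2 myeloid genes 1. No gene of the remaining lists was called. Lower in mutants were uros, an enzyme of heme synthesis (77.1 and 35.2 CPM, -1.08, SE 0.25, edgeR adjusted p 0.00353), and cldng, a claudin in the red cell membrane list (894 and 548 CPM, -0.67, SE 0.11, adjusted p 8.34e-05). Higher was abcb10, a mitochondrial transporter of the heme list (3.45 and 11.7 CPM, 1.79, SE 0.54, adjusted p 0.0209). klf17, a Kruppel-like factor of the hatching gland and of red cells in zebrafish, averaged 65.5 ± 17.8 CPM in wild type (n = 4) and 123 ± 11.3 CPM in mutants (n = 3), with no overlap (log2 fold change 0.95, SE 0.18, edgeR adjusted p 0.000476). znfl2a, a zinc finger gene, averaged 30.6 ± 12.02 and 106 ± 9.47 CPM (1.84, SE 0.24, edgeR adjusted p 4.54e-06). drl, a zinc finger gene of the lateral plate mesoderm, had no count in the 4 wild-type dome libraries, which allows up to 0.114 CPM, and 14 to 43 counts in each of the 3 mutant libraries, through which alone it passed the filter. It had 13 to 23 counts in wild-type shield libraries and 6 to 21 in mutant ones. lcp1, from the myeloid list, averaged 69.4 ± 20.2 and 226 ± 16.9 CPM at dome (1.74, SE 0.17, edgeR adjusted p 6.75e-08). The 6 matched markers of that list summed to means of 73.3 and 229 CPM there, so lcp1 made up most of the sum. spi1b and csf1ra were at 0 in both genotypes, so the value is that of 1 gene and does not describe myeloid cells. All wild-type dome libraries were below all mutant ones for klf17, znfl2a and lcp1. The share of all genes with ranges apart at dome was not counted. klf17, znfl2a and lcp1 kept their calls under every alternative run.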
